A study of Homo sapiens with 4 samples.

Results

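Binding of the transcription factor SPIB was examined at 46 genes of the NRF2 pathway and of antioxidant defence in H1703 cells. The genes were taken from a list of names made with earlier results of these data known, and all 46 were found among the 20037 protein-coding genes that RefSeq (GRCh38.p14) places on the chromosomes. H1703 is an established human lung squamous cell carcinoma line, and every library came from cells made to overexpress SPIB, an ETS-family transcription factor known from B cells. There were 4 libraries, with 1 per group: a ChIP with an anti-FLAG M2 antibody and an input without antibody from suspended cells, and the same pair from attached cells. The labels name 24 h of suspension in the treatment text of every library, so the condition label was used to tell the groups apart. No library of cells without added SPIB was used here, and peak lists give no expression, so the labelled cell type was not checked against markers.

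NRF2, the product of NFE2L2, is the master transcription factor of the response to oxidants and electrophiles. KEAP1 holds it in the cytoplasm and delivers it to the CUL3 ubiquitin ligase for destruction. When oxidants modify KEAP1, NRF2 enters the nucleus, pairs with a small MAF protein and binds antioxidant response elements at genes for glutathione, thioredoxin, NADPH and quinone metabolism, while BACH1 competes for the same elements. In lung squamous carcinoma this pathway is often switched on by mutations in NFE2L2, KEAP1 or CUL3. Cells that lose their attachment are known to meet oxidative stress. ETS proteins such as SPIB recognise a purine-rich core, GGAA.

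At 4 of the 36 members with a RefSeq start, a suspended peak overlapped the stretch from 250 bp before to 50 bp after it. The same was true of 1511 of the 15843 protein-coding genes with a listed start, so the count is not read as a result about the members. The 250 bases before the start are shown for each of the 4 members, 5′ to 3′ on the gene's strand. They lie at least in part under a called peak. The peak of NFE2L1 overlapped the stretches of both of its listed starts, and the first is shown. Capitals mark GGAA and its reverse complement TTCC.
NFE2L1 (GRCh38.p14, chr17:48048109-48048358, plus strand): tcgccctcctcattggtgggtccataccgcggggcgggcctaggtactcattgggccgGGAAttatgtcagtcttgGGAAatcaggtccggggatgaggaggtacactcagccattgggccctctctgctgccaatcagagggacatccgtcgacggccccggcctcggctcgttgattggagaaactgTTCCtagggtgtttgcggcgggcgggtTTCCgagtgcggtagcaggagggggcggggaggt
GCLC (chr6:53545102-53545351, minus strand): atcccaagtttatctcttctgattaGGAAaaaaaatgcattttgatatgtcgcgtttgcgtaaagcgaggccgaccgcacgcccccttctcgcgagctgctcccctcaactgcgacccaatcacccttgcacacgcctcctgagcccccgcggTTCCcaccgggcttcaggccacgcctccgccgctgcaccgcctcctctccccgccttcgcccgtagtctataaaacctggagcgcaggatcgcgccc
NQO1 (chr16:69726561-69726810, minus strand): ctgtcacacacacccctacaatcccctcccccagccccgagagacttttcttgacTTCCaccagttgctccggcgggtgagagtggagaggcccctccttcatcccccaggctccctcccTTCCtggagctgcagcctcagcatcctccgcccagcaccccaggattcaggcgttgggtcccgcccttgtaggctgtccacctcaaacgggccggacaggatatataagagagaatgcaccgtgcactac
IDH1 (chr2:208255072-208255321, minus strand): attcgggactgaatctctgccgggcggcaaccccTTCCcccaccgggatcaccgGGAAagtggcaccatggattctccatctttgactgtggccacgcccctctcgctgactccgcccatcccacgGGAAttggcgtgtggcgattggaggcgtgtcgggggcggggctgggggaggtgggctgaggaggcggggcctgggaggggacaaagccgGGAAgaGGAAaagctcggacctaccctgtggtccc
The peak covered all 250 of these bases at NFE2L1 and at IDH1, 189 at GCLC and 120 at NQO1. The core was found 4 times in the printed stretch of NFE2L1, 2 times in that of GCLC, 2 times in that of NQO1 and 5 times in that of IDH1. The first core printed for GCLC and the last printed for NQO1 lay outside the called peak.

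In suspended cells 16 of the 46 genes had a SPIB peak whose summit fell inside the gene or up to 5 kb outside, and in attached cells 1 had. The gene with a peak in attached cells, TXNRD2, was not among the 16. The 16 were spread over most parts of the pathway: NFE2L1 among the regulators, GCLC and SLC7A11 for glutathione, TXN2, TXNRD1 and SRXN1 of the thioredoxin system, PRDX1, PRDX2, PRDX3 and PRDX5, GPX4, IDH1 for NADPH, NQO1, AKR1C2 and AKR1C3 for quinone and carbonyl reduction, and FTH1 for iron. They held 20 suspended peaks, 1 each in 12 genes and 2 each in NQO1, TXNRD1, SRXN1 and PRDX2. The remaining 30 genes had no suspended peak, among them NFE2L2, KEAP1, CUL3 and BACH1.

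The members' share has to be read against the whole lists, which differed greatly in length. The authors called 9024 peaks in suspended cells and 462 in attached cells, from 20766909 and 21108364 filtered ChIP tags. Of all protein-coding genes, 28.6% had a suspended peak by the same rule and 1.86% an attached one, against 34.8% and 2.17% of the members. Long genes catch more peaks, so each member was also set beside the 200 other protein-coding genes nearest to it in span. On average 26.5% of those had a suspended peak, which corresponds to 12.2 genes where 16 were found, and 1.49% had an attached one. The members' share in suspended cells was therefore a few genes above that of other genes. With 1 library per condition no test was made, and this difference is not read as a property of the list. The median span was 13.9 kb for members with a suspended peak and 18.2 kb for those without.

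**Figure D1:**
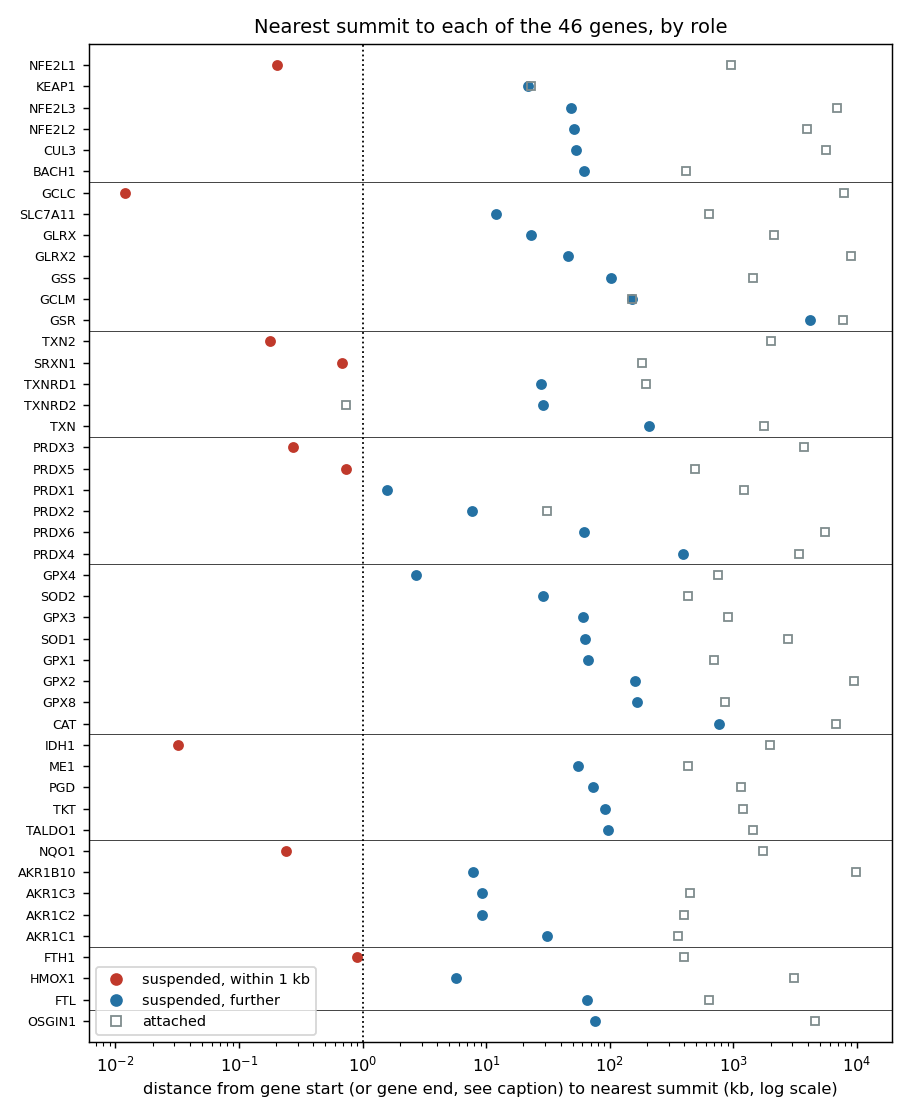
Distance from each of the 46 genes to the nearest peak summit in suspended cells (filled circles) and attached cells (open squares), in kb on a log axis, with genes grouped by role and the dotted line at 1 kb. Distance was taken from the nearest listed start, or from the nearer gene end for the 10 genes with no listed start. In suspended cells 9 genes lie left of the line, with GCLC (12 bp) and IDH1 (32 bp) closest, and in attached cells TXNRD2 does.

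A summit lay within 1 kb of a start in suspended cells at 9 members (19.6%). These were NFE2L1, GCLC, TXN2, SRXN1, PRDX3, PRDX5, IDH1, NQO1 and FTH1. The same was true of 14.0% of all protein-coding genes and of a mean of 14.5% of genes of like span. RefSeq starts were at hand for 36 members. For SOD1, GSR, PRDX1, GSS, AKR1B10, SLC7A11, HMOX1, FTH1, PRDX6 and TXN2 either end of the gene stood in for the start, so that the placements of TXN2 and FTH1 are relative to a gene end.

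Among the regulators, NFE2L1 was the 1 gene of 6 with a peak (a mean of 31.0% for genes of like span), and that peak was the largest of all the members'. NFE2L1 encodes NRF1, an NRF2 relative that is held in the endoplasmic reticulum and drives proteasome genes. Its suspended peak (chr17:48047512-48048735) held 90 tags (exact Poisson 95% interval 72.4 to 111, counting error only) in 1224 bp, with an authors' fold over local background of 5.29 and an authors' false discovery rate (FDR) of 0%. The interval does not overlap that of any other member peak, as the plot of tags shows. The authors' score, which grows as the MACS p-value falls, was 134.28, higher than at 96.8% of suspended peaks, whereas its fold was higher than at 8.49% of them. The summit lay 203 bp after the first listed start. COPZ2 lay 509 bp from the summit, and the divergent transcript NFE2L1-DT also lay within 5 kb of it.

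The core of the NRF2 switch had no peak in either condition. The nearest suspended summit was 51017 bp from NFE2L2, 21725 bp from KEAP1 and 53115 bp from CUL3. It was 13308 bp from NFE2L3, a further NRF2 relative, and 5316 bp from BACH1, the repressor of the same elements. In attached cells the nearest summit to KEAP1 was 6234 bp from the gene. In suspended cells BACH1, HMOX1 (heme oxygenase 1, 5738 bp) and AKR1B10 (7760 bp) were the members just outside the 5 kb window, and the furthest peak inside it lay 3732 bp from PRDX2.

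Glutathione genes had a suspended peak in 2 of 7, against a mean of 28.4% for genes of like span. GCLC encodes the catalytic subunit of glutamate-cysteine ligase, the rate-limiting enzyme of glutathione synthesis. Its peak (chr6:53545006-53545290) held 18 tags (10.7 to 28.4) with a fold of 7.71 and an FDR of 2.84%. Its summit lay 12 bp before the start, the closest of any member, and no other gene lay within 5 kb. GCLM, the modifier subunit of the same enzyme, had no peak, and its nearest suspended and attached summits lay 152225 and 152235 bp away. SLC7A11, the cystine importer that feeds the pathway, had a narrow peak of 221 bp inside the gene (chr4:138230167-138230387), 12093 bp from its nearer end, with 10 tags (4.80 to 18.4), a fold of 14.9 and an FDR of 2.45%. This fold was higher than at 92.4% of suspended peaks although the tags were few. GSS, GSR, GLRX and GLRX2, for the last step of synthesis, the reduction of oxidised glutathione and the reduction of protein disulfides with it, had none.

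The thioredoxin system had suspended peaks in 3 of 5 genes, against a mean of 29.2% for genes of like span, and held the 1 attached peak. SRXN1, sulfiredoxin, which repairs overoxidised peroxiredoxins, had a peak 679 bp after its start (chr20:652304-652582) with 19 tags (11.4 to 29.7) and a fold of 6.55. A further SRXN1 peak lay 6090 bp after the start, near the other end of the gene (chr20:646964-647206), with 14 tags (7.65 to 23.5) and a fold of 8.19. The tag intervals of both SRXN1 peaks overlap. TXN2, mitochondrial thioredoxin, had a peak 179 bp inside a gene end (chr22:36481336-36481608) with 14 tags (7.65 to 23.5), a fold of 8.82 and an FDR of 4.75%.

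TXNRD1, the cytosolic thioredoxin reductase, had 2 suspended peaks deep in the gene and far from both of its listed starts. The first (chr12:104253580-104253732) had the highest fold of the members' suspended peaks, 15.42, with 10 tags (4.80 to 18.4), and lay 33394 bp before the nearer start. The other (chr12:104314834-104314999) had 9 tags (4.12 to 17.1) and a fold of 11.17, and lay 27902 bp after it. TXNRD2, the mitochondrial reductase, had the attached peak (chr22:19942415-19942681), with 17 tags (9.90 to 27.2), a fold of 16.69 and an FDR of 100%. An FDR of 100% means that calling with ChIP and input exchanged gave at least as many peaks at that score, and 305 of the 462 attached peaks carried it. The TXNRD2 summit lay 728 bp before the start, and the nearest suspended summit was 28165 bp away. TXN, the cytosolic thioredoxin, had no peak in either condition.

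Peroxiredoxins, the thiol peroxidases that thioredoxin keeps reduced, had suspended peaks in 4 of 6 genes. The mean share for genes of like span was 21.8%, and with 6 genes this is a description. PRDX5 had a peak 739 bp after the nearer of its listed starts (chr11:64318681-64319208) with 34 tags (23.5 to 47.5) and a fold of 6.83, and TRMT112 lay 429 bp from that summit. PRDX3, the mitochondrial form, had a peak 273 bp after its start (chr10:119178376-119178639) with 17 tags (9.90 to 27.2), a fold of 6.92 and an FDR of 4.78%. PRDX1, a main cytosolic form, had a peak inside the gene, 1569 bp from its nearer end (chr1:45521108-45521448), with 20 tags (12.2 to 30.9), a fold of 9.56 and an FDR of 0.58%. No other gene lay within 5 kb of the PRDX1 and PRDX3 summits.

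The peaks counted for PRDX2 lay closer to another gene. They held 35 (24.4 to 48.7) and 20 tags (12.2 to 30.9), with folds of 5.59 and 5.55, at 2625 and 3732 bp beyond the gene end opposite to the start. The summit further from PRDX2 was inside JUNB, an AP-1 transcription factor gene, and the other was 883 bp from JUNB. PRDX4 and PRDX6 had no peak.

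Enzymes that remove superoxide and hydrogen peroxide had a suspended peak in 1 of 8 genes, against a mean of 22.1% for genes of like span. It was counted for GPX4, the peroxidase that reduces lipid peroxides and guards against ferroptosis. That peak (chr19:1106977-1107399) held 23 tags (14.6 to 34.5) with a fold of 8.32, an FDR of 0.47% and a score higher than at 90.7% of suspended peaks. Its summit lay 555 bp beyond GPX4 and 304 bp from SBNO2. SOD1, SOD2, CAT, GPX1, GPX2, GPX3 and GPX8 had no peak in either condition, and their nearest suspended summits lay between 28859 bp (SOD2) and 766481 bp (CAT) away.

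Genes that supply NADPH had a suspended peak in 1 of 5, against a mean of 30.5% for genes of like span. IDH1, cytosolic isocitrate dehydrogenase, had it 32 bp before a listed start (chr2:208255027-208255416), with 17 tags (9.90 to 27.2), a fold of 9.83 and an FDR of 1.71%. The antisense gene IDH1-AS1 lay 130 bp from that summit. PGD, TKT and TALDO1 of the pentose phosphate pathway and ME1, malic enzyme, had none.

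Quinone and carbonyl reductase genes had a suspended peak in 3 of 5, against a mean of 30.0% for genes of like span. NQO1, the quinone reductase used as a standard readout of NRF2, had 2 peaks before its start and in the divergent transcript gene NQO1-DT. The closer (chr16:69726691-69727088) lay 242 bp before the start with 22 tags (13.8 to 33.3), a fold of 5.59 and an FDR of 3.06%. The further (chr16:69727919-69728141) lay 1462 bp before it with 13 tags (6.92 to 22.2) and a fold of 9.10. Of the aldo-keto reductases, which reduce carbonyls and steroids, AKR1C2 and AKR1C3 had a peak inside the gene. The AKR1C2 peak (chr10:4994479-4994646) had 9 tags (4.12 to 17.1) and a fold of 14.9. The AKR1C3 peak (chr10:5103615-5103855) had 10 tags (4.80 to 18.4) and a fold of 11.85. Their summits lay 9307 and 9297 bp after the nearest listed start. AKR1C1 and AKR1B10 had no peak. The AKR1C genes are close paralogs, and the sources used here do not say how reads that fit several copies were handled, so these placements are uncertain.

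Of the genes for heme and iron, FTH1, the ferritin heavy chain that stores iron in a harmless form, was the 1 of 3 with a suspended peak (18.0% for genes of like span). It lay 903 bp outside the gene (chr11:61968222-61968717), inside LOC399900, with 30 tags (20.2 to 42.8), a fold of 11.22 and an FDR of 0.18%. Its score of 106.28 was higher than at 93.7% of suspended peaks, next to that of NFE2L1 among the members. FTL, HMOX1 and the NRF2 target OSGIN1 had none.

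**Figure D2:**
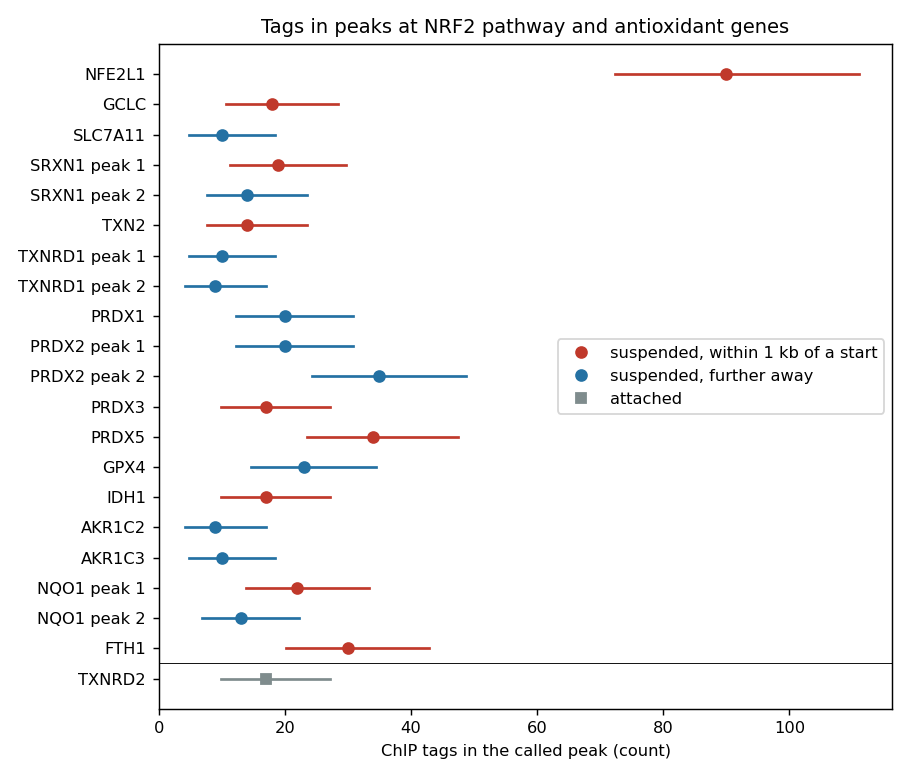
ChIP tags in each called peak of the members (count, x axis), with exact Poisson 95% intervals as bars, for the 20 suspended peaks (circles) and the attached TXNRD2 peak (square, bottom). NFE2L1 stands at 90 tags, and the other suspended peaks lie between 9 and 35.

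By their medians the members' peaks near starts were wider and lower in fold than those further away, though both kinds overlapped. The 9 peaks within 1 kb of a start had a median of 19 tags, a median width of 390 bp and a median fold of 6.92. The 11 further away had medians of 13 tags, 241 bp and a fold of 9.56. Near a start, FTH1 and IDH1 had folds of 11.22 and 9.83, and further away the PRDX2 peaks were 339 and 531 bp wide with folds of 5.55 and 5.59. At the 6 peaks inside the gene and over 5 kb from a start (a gene end at SLC7A11), in SLC7A11, TXNRD1, AKR1C2, AKR1C3 and SRXN1, the medians were 10 tags, 194.5 bp and a fold of 13.38. The whole suspended list ran the same way, with medians of 23 tags, 376 bp and a fold of 7.24 at the 2317 peaks within 1 kb of a protein-coding start, and of 12 tags, 219 bp and a fold of 9.83 at the 6664 further away. This pattern was therefore not particular to the members. The splits were not made quite alike. For the whole list only listed starts counted, and peaks off the numbered, X and Y chromosomes were left out. Among the members a gene end stood in where no start was listed. Fold is tags over local background, so a few tags where the background is low give a high fold. The lists do not give the local background, and its part in this pattern was not tested.

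**Figure D3:**
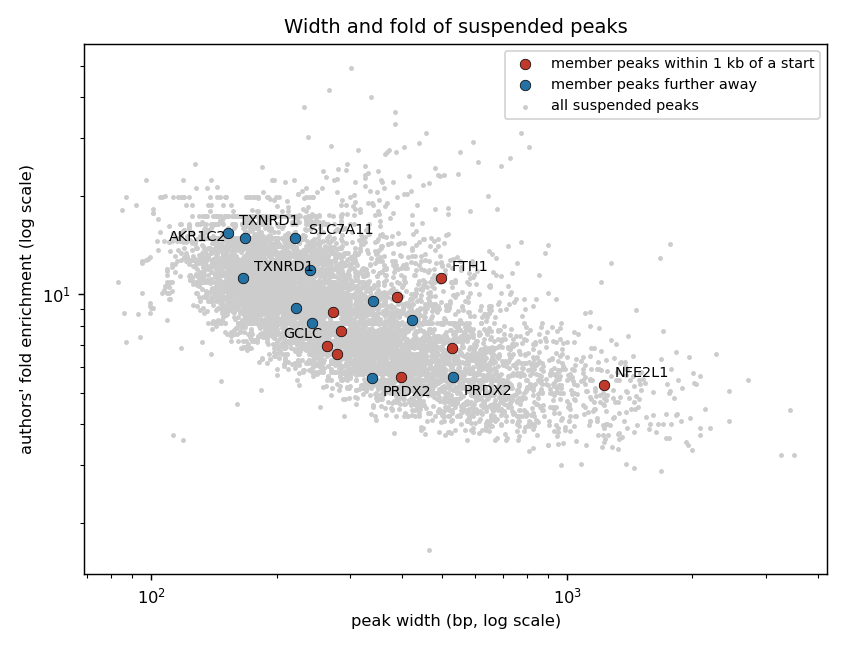
Width in bp (x, log axis) and the authors' fold enrichment (y, log axis) of all 9024 suspended peaks (grey), with the 9 member peaks within 1 kb of a start (red) and the 11 further away (blue). NFE2L1 is the widest member peak at 1224 bp, and the narrowest, 153 bp in TXNRD1, has the highest fold of these 20 peaks, 15.42.

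By score the members' peaks ranged from above 2.47% to above 96.8% of the suspended list, with more of them in its upper part. No test of this was made. The median score of the 20 peaks was 64.98, against 59.12 for all suspended peaks, and 15 of the 20 lay in the upper 50% of the list by score. The authors' FDR was at most 5% for 18 of the 20, and for 6933 of all 9024. The exceptions were AKR1C3 (5.57%) and the PRDX2 peak inside JUNB (6.31%). None of the 20 overlapped an attached peak, and the nearest attached summit to any of them was 38396 bp away, from a PRDX2 peak. With 462 attached peaks beside 9024 suspended ones, few suspended peaks of any kind could overlap one. The share of the whole list that did was not counted, so this is not read as a trait of the members. Tags outside called peaks are not in the lists, so a site that was not called in attached cells is not shown to be unbound there.

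Peaks near several genes cannot be given to 1 of them by position. Another annotated gene lay within 5 kb of the summit at 11 of the 20 suspended peaks. Of the 20, 5, at NFE2L1, PRDX2, PRDX5 and GPX4, lay in the 5% of 1 Mb windows most crowded with suspended peaks. These windows held 12 or more peaks each, against a median of 3, so by definition they hold more than 5% of all suspended peaks. The shares of the whole list with another gene so close, or in such windows, were not counted. Neither count is therefore read as a trait of the members. Without these windows 12 members kept a suspended peak in place of 16, and 21.9% of all protein-coding genes did in place of 28.6%. When only the protein-coding gene nearest to a summit was counted, 14 members kept a suspended peak (24.6% of all protein-coding genes did), without PRDX2 and GPX4. Crowding can follow extra copies of a chromosome region, and its part in these peaks was not tested.

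Promoter sequence was compared over the 55 stretches listed for 36 members. The core GGAA, on either strand, was in 92.7% of them and in 95.1% of the 22199 stretches of all protein-coding genes. A longer ETS consensus, CCGGAAGT on either strand, which contains that core, was in none of the 55 and in 5.34% of all. In the whole series it was in 9.62% of the 1768 stretches that a suspended peak overlapped and in 4.97% of the 20431 that none did. The core of the antioxidant response element, TGACNNNGC on either strand, was in 14.5% of the members' stretches and in 13.8% of all. It was found at starts of GCLM, GPX2, IDH1, KEAP1, ME1, PGD and TXNRD1, of which IDH1 was the 1 whose stretch lay under a peak. The members' stretches were rich in G and C, with a median of 68.7% against 62.3% for all. These counts are of letters in a window of 300 bases and say nothing of the factors.

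A wider list of 60 NRF2-related genes, none of them among the 46, held a suspended peak in 11 (18.3%), against 28.6% for genes of like span. Within 1 kb of a start 6 of the 60 had a peak (10%), against 14.4% for genes of like span. MAFG and MAFK, small MAF partners of NRF2, had 71 tags (55.5 to 89.6) at a fold of 7.35 and 38 tags (26.9 to 52.2) at 6.96. SQSTM1, whose product p62 sequesters KEAP1, had 64 tags (49.3 to 81.7) at a fold of 7.12. DPP3, a further KEAP1 binder, TXNIP, the thioredoxin-binding protein, and the heme transporter gene SLC48A1 had 15 (8.40 to 24.7), 18 (10.7 to 28.4) and 13 tags (6.92 to 22.2). The FDR of the DPP3 peak was 6.38%. Other annotated genes lay within 5 kb of the summits at MAFG (MAFG-AS1, MILIP), MAFK (LOC100128653), SQSTM1 (MGAT4B) and DPP3 (DPP3-DT, PELI3). Those peaks cannot be given to 1 gene by position. Elsewhere, PIR had a fold of 13.65 at 9 tags (4.12 to 17.1) and OXSR1 9.98 at 10 (4.80 to 18.4). The highest folds at ALDH3A1, BACH2 and ABCC3 were 8.78 at 17 tags (9.90 to 27.2), 7.70 at 10 (4.80 to 18.4) and 7.12 at 16 (9.15 to 26.0). ALDH3A1 also had peaks of 52 (38.8 to 68.2) and 49 tags (36.3 to 64.8) at folds of 7.27 and 6.48. ABCC3 also had a peak of 40 tags (28.6 to 54.5) at 5.09. In attached cells SESN1, a sestrin, had a peak of 12 tags (6.20 to 21.0) with an FDR of 100%. It was the 1 gene of the 60 with an attached peak (1.67%, against 1.76% for genes of like span).

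Other stress-response lists were counted in the same way. In suspended cells 13 of 42 heat shock genes (31.0%) and 8 of 40 unfolded protein response genes (20.0%) had a peak, against 24.8% and 28.1% for genes of like span. Near a start the counts were 10 (23.8%) and 6 (15%), against 13.3% and 14.4% for genes of like span. In attached cells 2 heat shock genes (4.76%) had a peak and no unfolded protein response gene did. The shares for genes of like span were 1.48% and 1.66%, and 1.86% of all protein-coding genes had an attached peak. With so few attached peaks, these counts are not read as a difference between the lists. The members' own counts were 16 of 46 over the gene and 9 near a start, and no test of these differences was made.

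**Figure D4:**
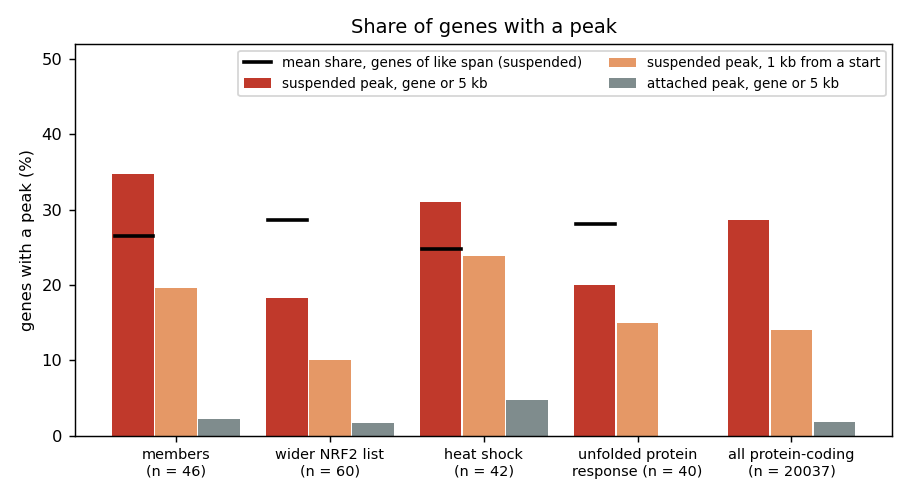
Share of genes (%) with a suspended peak in the gene or within 5 kb (red), with a suspended peak within 1 kb of a start (orange) and with an attached peak in the gene or within 5 kb (grey), for the members, 3 other lists and all protein-coding genes. Black lines give the mean suspended share of genes of like span, 26.5% beside the members' 34.8% and 28.6% beside 18.3% in the wider NRF2 list.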

How the data were processed

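The labels describe anti-FLAG ChIP-seq of SPIB, with 1 ChIP and 1 input library each from suspended and attached H1703 cells. The authors ran MACS 1.4.2 on each ChIP library with the input from the same condition as control, at a p limit of 1e-05 with bands of 200 bp and 1 tag per position, per the file headers. The modelled fragment was 63 bp (suspended) and 58 bp (attached), close to the tag size of 50 bp, per the file headers, and its effect on the peaks was not tested. Inputs held 21437074 and 15878452 filtered tags. The build is hg38, per the submitters' processing notes, and no aligner is named in the sources used here. The deposited lists give raw counts of ChIP tags, the authors' fold enrichment, their FDR in percent and a score whose column name was lost, read from its place as a rescaled minus log10 of the p-value, with a lowest value of 50 at the p limit.

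A summit was start + summit - 1. Genes and starts came from RefSeq tables (GRCh38.p14, gene spans without exons or UTRs, starts for 15843 protein-coding genes), handled with pandas 2.3.3, numpy 2.4.6 and SciPy 1.17.1 under Python 3.11.15. Figures were drawn with matplotlib 3.10.9. Where a gene had no listed start, both gene ends were used. Counting was tested on simulated data. Every member with a peak was named with its peaks, as were genes of the wider list with a peak at a start and up to 6 others by fold, while the other 2 lists were only counted. TRIM16L, on the wider list, is not protein-coding in the table and was left out. The members and lists were chosen with earlier results of these data known. Without replicates there is no test, and Poisson intervals cover counting error only. An added alternative for attached peaks is not reported here. Alternatives covered the peak threshold, the window, the summit, crowded windows, the overlap and the number of genes of like span.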

Additional observations from a re-analysis of the deposited data

How the results depend on the processing

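The 16 members with a suspended peak became 10 both when the gene span alone was searched and when only 1 kb from either gene end was. Under the other alternatives the count lay between 12 (without crowded windows) and 19 (10 kb on both sides), with 14 where only the nearest protein-coding gene counted, an alternative chosen after seeing the data. All protein-coding genes moved as well, to 20.3% over the span, 13.8% at gene ends, 21.9% without crowded windows and 32.2% within 10 kb. The 1 member with an attached peak became 0 at an FDR of at most 5%, 0 in the upper 50% by score, 0 in the gene span and 2 within 10 kb, where KEAP1 joined TXNRD2. In that order, 0.105%, 0.988%, 1.12% and 2.15% of all protein-coding genes had an attached peak. The 9 members with a suspended peak near a start stayed between 6 (500 bp, where 10.9% of all genes had one) and 10 (2 kb, 16.0%). No member peak was shared under any overlap tried, with no count for the whole list beside it. The share for genes of like span was 26.5% with 200 and 26.7% with 500 genes per member, beside 28.6% of all protein-coding genes. Peaks near a start had the lower median fold under each alternative tried. For the other 3 lists, and for that fold difference, 43 values kept to within 1.5 times of the reported one or kept its direction, and 13 moved further, none of them the fold difference. Leaving out a replicate was not possible with 1 library per group. No paired analysis was possible because each group has 1 library and no result comes from a test. Depth limits single peaks: at 10 tags the interval runs from 4.80 to 18.4.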
